A study of Homo sapiens with 15 samples.

Results

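MYC and 37 genes of ribosome biogenesis, polyamine and nucleotide synthesis were followed across 15 RNA-seq libraries of the human cell line Reh, which grew from a B-lymphoblastic leukaemia. They are a named list of 38 genes out of 33367 named genes in the tables, and reads were summed over the transcripts of each gene. All 38 passed the filter on low counts in both experiments, where 14242 and 13464 genes were tested. Reh has an ETV6::RUNX1 fusion and no normal copy of ETV6, so a transgene adds ETV6 to cells that lack the normal protein. ETV6 is a repressor of the ETS family of transcription factors, and R399C is a substitution in its DNA-binding domain. The study had 5 groups of 3 libraries. From a vector switched on by doxycycline, ETV6_WT cells made wild-type ETV6, ETV6_R399C cells the R399C form and tagBFP cells a blue fluorescent protein, each with a V5 tag. Those 9 libraries were made after 48 h in 500 ng/ml doxycycline. The sgERG and sgCtrl cells carried inducible dCas9-KRAB, an inactive Cas9 fused to a repressor domain, with a guide that directs it to the ERG promoter (sgERG) or a guide with no target (sgCtrl). Cells bearing the guide's fluorescent reporter were sorted and gave 6 libraries after 72 h in 500 ng/ml doxycycline. All groups were transduced cell populations, and every group, controls included, received doxycycline.

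MYC is a transcription factor that binds DNA together with MAX, and genes for building ribosomes and for making polyamines and nucleotides are among its best-known targets. Ribosomes are assembled in the nucleolus. RNA polymerase I transcribes the precursor ribosomal RNA (rRNA), small nucleolar ribonucleoproteins (snoRNPs) modify it, and large sets of assembly factors cut and fold it into the small and the large subunit. Rapidly dividing lymphoid leukaemia cells depend on this output.

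Library totals ran from 22040338 to 52481351 estimated reads. The label checks held: ETV6 stood at 486 ± 18.1 CPM (counts scaled to library size) in ETV6_WT cells, 373 ± 14.7 CPM in ETV6_R399C cells and 5.86 ± 0.327 CPM in tagBFP cells (SD, n = 3 each). ERG stood at no more than 110 CPM in sgERG libraries, against 517 to 529 CPM in sgCtrl libraries. The ETV6 count also differed there, at 6.56 ± 0.513 CPM in sgERG and 13.2 ± 1.25 CPM in sgCtrl libraries (SD, n = 3 each), without overlap. The part of this ETV6 difference in the results below was not tested. In every group 9 of 10 B-lineage markers exceeded 1 TPM (a length-scaled level) in all libraries, with VPREB1 at 0. Their summed level was 4419 to 4451 TPM in ETV6_WT, 4401 to 4466 TPM in ETV6_R399C and 3338 to 3460 TPM in tagBFP libraries, and 3631 to 3740 TPM in sgERG against 3969 to 4082 TPM in sgCtrl libraries. Markers of T cells (CD3D and CD2) and erythroid cells (HBB, HBA1 and ALAS2) were at 0 in every library. Summed myeloid markers were at 47.8 to 55.4 TPM in ETV6_WT, 54.9 to 64.4 TPM in ETV6_R399C and 33.1 to 39.5 TPM in tagBFP libraries, and at 77.6 to 86.2 TPM in sgERG against 58.9 to 64.2 TPM in sgCtrl libraries. Summed endothelial and stromal markers were at 13 to 19.3 TPM in the 3 ETV6-experiment groups, and at 45.9 to 47.4 TPM in sgERG against 34.1 to 40.7 TPM in sgCtrl libraries, with CDH5, KDR and COL3A1 at 0. Megakaryocyte markers summed to 8.83 to 11.1 TPM in sgERG against 5.83 to 8.8 TPM in sgCtrl libraries, with PF4 at 0. The part of these marker differences in the results below was not tested. The sgERG replicate 3 library stood apart from its group, at 12.92 and 14.68 chi-square units per degree of freedom from the other two, which were 6.94 apart. Replicate 3 of tagBFP did so to a smaller extent, with 5.98 and 6.50 against 3.16, as did replicate 2 of sgCtrl, with 6.13 and 6.36 against 3.71. Nothing in the labels says that replicates were separate cultures, so p-values measure only the spread between these libraries.

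Many of the genes carry the E-box CACGTG, the motif bound by MYC with MAX, close to their start. RefSeq promoter windows of 300 bases, from 250 before to 50 after the start, were found for 31 of the 38 genes. The letters CACGTG, which read the same on both strands, lay in a window of 16 of these 31 genes (51.6%), against 12.5% of 10328 genes tested in the ETV6 experiment and 8.77% of all 27305 genes in the promoter table. The core ETS motif CGGAAG or its reverse complement CTTCCG, whose letters cannot overlap the E-box, lay in 13 of 31 (41.9%), against 37.7% of the genes tested and 22.6% of all genes. A gene with several starts has several windows, and a match is a string of letters, not a measured binding site. Shown are the E-box promoters of the 4 genes with the smallest p-values in ETV6_WT against tagBFP among the genes with such a window. All come from RefSeq on GRCh38.p14 and are written 5′ to 3′ on the strand of the gene, with CACGTG in capitals.
DDX21, chr10:68956397-68956696, forward strand: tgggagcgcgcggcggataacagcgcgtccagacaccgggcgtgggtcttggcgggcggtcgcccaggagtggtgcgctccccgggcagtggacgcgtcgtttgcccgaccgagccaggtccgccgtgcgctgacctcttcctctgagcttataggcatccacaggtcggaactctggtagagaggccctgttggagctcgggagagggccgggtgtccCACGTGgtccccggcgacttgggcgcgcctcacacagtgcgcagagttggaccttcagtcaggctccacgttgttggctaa
ODC1, chr2:10447963-10448262, reverse strand: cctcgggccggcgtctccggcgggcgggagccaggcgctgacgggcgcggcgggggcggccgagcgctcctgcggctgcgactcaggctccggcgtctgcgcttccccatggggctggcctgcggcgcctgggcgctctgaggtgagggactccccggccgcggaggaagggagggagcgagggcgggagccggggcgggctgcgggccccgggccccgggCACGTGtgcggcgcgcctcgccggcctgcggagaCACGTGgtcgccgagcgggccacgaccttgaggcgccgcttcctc
WDR43, chr2:28894417-28894716, forward strand: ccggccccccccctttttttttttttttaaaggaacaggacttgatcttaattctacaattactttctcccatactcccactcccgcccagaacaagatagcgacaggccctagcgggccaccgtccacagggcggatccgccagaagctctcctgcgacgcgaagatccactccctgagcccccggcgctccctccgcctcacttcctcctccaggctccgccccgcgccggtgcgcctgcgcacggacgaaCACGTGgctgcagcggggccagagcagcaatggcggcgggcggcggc
PES1, chr22:30591861-30592160, reverse strand: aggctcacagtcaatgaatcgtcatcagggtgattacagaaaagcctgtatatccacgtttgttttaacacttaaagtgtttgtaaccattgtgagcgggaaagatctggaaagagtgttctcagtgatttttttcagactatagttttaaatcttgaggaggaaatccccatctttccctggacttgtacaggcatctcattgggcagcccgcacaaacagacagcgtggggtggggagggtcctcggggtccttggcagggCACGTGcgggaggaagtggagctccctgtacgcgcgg
In DDX21 the E-box began 31 bases before the start. ODC1 held 2 E-boxes, the first beginning 29 bases before the start. In WDR43 and PES1 the motif lay just downstream of the start. Each start is that of the printed RefSeq promoter, and DDX21 and ODC1 each have another window with no CACGTG. The printed windows of DDX21, ODC1 and PES1 lie inside the GENCODE 29 bounds of the gene.

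On hg38, with GENCODE 29 gene bounds, ODC1 lies at chr2:10439968-10448504 (reverse strand), LYAR at chr4:4267701-4290169 (reverse), NOP16 at chr5:176383938-176388975 (reverse) and DKC1 at chrX:154762742-154777689 (forward). DDX21 lies at chr10:68956128-68985073 (forward), RRP9 at chr3:51933430-51941941 (reverse) and WDR12 at chr2:202874782-203014798 (reverse). All reads were summed per gene, over its exons in every listed transcript. The 38 genes spanned a wide range of levels. NPM1, which encodes the nucleolar chaperone nucleophosmin, was the highest per transcript length in every group, at 2408 ± 53.9 TPM in ETV6_WT, 2409 ± 61.9 TPM in ETV6_R399C and 2899 ± 110 TPM in tagBFP libraries (SD, n = 3 each). In the guide experiment NPM1 was at 2025 ± 27.8 TPM in sgERG and 2022 ± 41.7 TPM in sgCtrl libraries. NCL, encoding the abundant nucleolar protein nucleolin, came second in all 5 groups. MYC itself was at 203 ± 12 TPM in ETV6_WT, 207 ± 4.39 TPM in ETV6_R399C and 272 ± 13.9 TPM in tagBFP libraries, ranking 7, 7 and 6 among the 38. It was at 453 ± 27.1 TPM in sgERG and 402 ± 20.1 TPM in sgCtrl libraries, ranking 3 and 4. BOP1, a large-subunit assembly factor, was the lowest in 4 groups and rested on 14 to 231 reads per library. UTP20 was the lowest in sgERG cells, at 6.89 ± 0.433 TPM. Together the 38 genes took 0.938% to 0.952% of the reads of named genes in ETV6_WT, 0.889% to 0.928% in ETV6_R399C and 1.15% to 1.18% in tagBFP libraries, so neither ETV6 group overlapped tagBFP. Their share was 0.778% to 0.807% in sgERG and 0.735% to 0.747% in sgCtrl libraries, again without overlap. NCL and NPM1 alone supplied 39.8% to 42% of these reads.

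Almost the whole set fell with wild-type ETV6. MYC, ODC1 and 35 others fell in ETV6_WT against tagBFP cells, 37 of 38, while 18.9% of all genes tested were called lower (edgeR quasi-likelihood test, Benjamini-Hochberg adjusted p under 0.05 over all genes tested). The falls were modest: the median log2 fold change was -0.30, against -0.0014 over all genes tested, and the called genes ran from -0.52 (RRS1) to -0.10 (CAD). None was higher at that threshold, at an unadjusted p under 0.05 or in DESeq2. In 37 genes all 3 ETV6_WT libraries lay below all 3 tagBFP libraries, a pattern seen in 25% of genes tested. All changes are relative to the library after TMM scaling, and less of these RNAs per cell cannot be told apart from more of all other RNA.

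MYC stood at 338, 353 and 356 CPM in the ETV6_WT libraries, against 486, 487 and 470 CPM in the tagBFP libraries. The 2 groups did not overlap, and MYC had the smallest p of the set (log2 -0.46 ± 0.03 SE, edgeR adjusted p = 2.6e-07). ODC1, the rate-limiting enzyme of polyamine synthesis, was at 298, 296 and 288 CPM in ETV6_WT, against 391, 392 and 410 CPM in tagBFP libraries, again without overlap (log2 -0.44 ± 0.04 SE, edgeR adjusted p = 4.2e-06). The other 4 genes outside ribosome assembly all fell: SRM (spermidine synthase), NME1 (a nucleoside diphosphate kinase), PPRC1 (a coactivator of mitochondrial gene programmes) and CAD (the enzyme that starts pyrimidine synthesis). CAD fell least in the whole set, at log2 -0.10 ± 0.03 SE (edgeR adjusted p = 0.0355), and stood at 0.094 with an offset for transcript length (edgeR adjusted p = 0.614). With the replicate number as a block its call was also lost (edgeR adjusted p = 0.0578).

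All 3 RNA polymerase I genes fell, by log2 -0.31 (POLR1B), -0.29 (POLR1C) and -0.18 (POLR1A). POLR1A and POLR1B encode the catalytic subunits, and POLR1C a subunit shared with RNA polymerase III. The 5 snoRNP genes fell by a median of log2 -0.27. DKC1, the pseudouridine synthase of the H/ACA snoRNPs, was at 272, 270 and 267 CPM in ETV6_WT, against 331, 330 and 336 CPM in tagBFP libraries (log2 -0.30 ± 0.02 SE, edgeR adjusted p = 2.1e-06). Its libraries within a group lay close together and the groups were far apart. FBL, the rRNA methyltransferase of the C/D snoRNPs, and its partner NOP58 fell least among them, both at log2 -0.18.

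The 6 nucleolar scaffold and regulator genes fell by a median of log2 -0.26. DDX21, a nucleolar RNA helicase, was at 400, 397 and 397 CPM in ETV6_WT, against 510, 522 and 521 CPM in tagBFP libraries (log2 -0.38 ± 0.03 SE, edgeR adjusted p = 2.3e-06). All ETV6_WT libraries lay below all tagBFP libraries. The most abundant pair fell by similar amounts, NPM1 by log2 -0.27 ± 0.04 SE and NCL by log2 -0.26 ± 0.03 SE.

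Small-subunit and rRNA-modification genes fell in 9 of 9, with a median of log2 -0.31. RRP12, a factor for export and maturation of pre-ribosomes, fell most at log2 -0.45, and the processome protein HEATR1 least at log2 -0.20. Large-subunit genes fell in 8 of 9, with a median of log2 -0.32. Among them NOP16, a large-subunit assembly factor, had a fragile call (log2 -0.24, edgeR adjusted p = 0.0414). It was lower in 9 of 15 settings, and was lost without ETV6_WT replicate 2 (0.0648), without ETV6_WT replicate 3 (0.168) and without tagBFP replicate 1 (0.122), as adjusted p. WDR12, a partner of PES1 and BOP1 in the complex that processes the large-subunit rRNA, fell by log2 -0.44 ± 0.04 SE (edgeR adjusted p = 7.3e-06). RRS1, which brings proteins and rRNA into the early large subunit, had the largest called fall, log2 -0.52 ± 0.07 SE (edgeR adjusted p = 1.2e-04).

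BOP1 was the exception. It was at 1.6, 1.77 and 4.47 CPM in ETV6_WT, against 2.57, 4.62 and 3.29 CPM in tagBFP libraries, and the groups overlapped. Its 95% interval, log2 -1.55 to 0.72, spans both directions, and no change was detected (edgeR adjusted p = 0.618). The SE was 0.58 here and 0.13 in sgERG against sgCtrl cells. The parts of read depth and of spread between libraries in this were not tested. Some counts can share reads with a neighbour on the same strand, namely NME1 (NME1-NME2), PPAN (PPAN-P2RY11 and P2RY11), RRS1, GRWD1 and RRP12. The strand setting of the quantification is not given in the sources used here, so POLR1C, GNL3, MYBBP1A, HEATR1, TSR1, BOP1 (SCX), WDR12 (CARF) and NOP16 (ARL10 and HIGD2A) may share reads with genes on the other strand. NPM1 has processed pseudogenes.

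**Figure D1:**
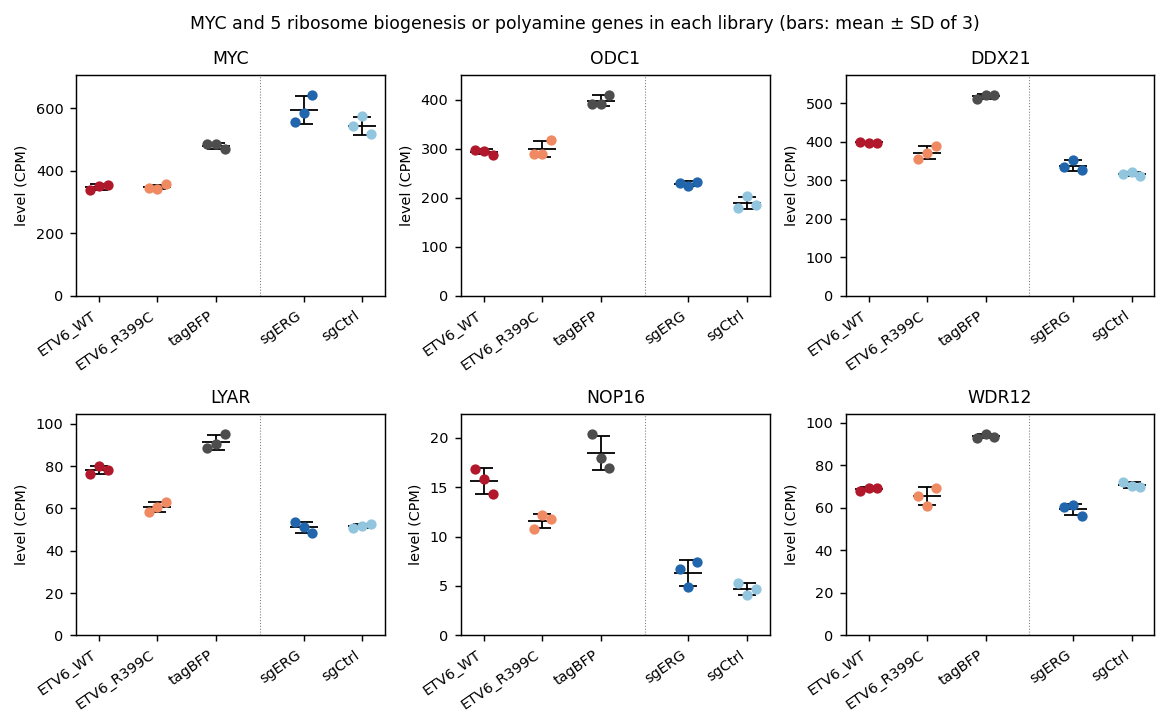
Level in CPM of 6 genes in each of the 15 libraries, with the mean and SD of 3 libraries per group and a dotted line between the experiments, which were scaled separately. In MYC the ETV6_WT and ETV6_R399C libraries sit together between 338 and 357 CPM, below the tagBFP libraries at 470 to 487 CPM, while in LYAR and NOP16 the ETV6_R399C libraries are the lowest of the 3 groups.

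As many of the genes fell with ETV6 R399C. In ETV6_R399C against tagBFP cells 37 of 38 fell and none rose, while 22.1% of all genes tested were called lower. None rose at an unadjusted p under 0.05 or in DESeq2 either. The median log2 fold change was -0.42, against -0.0011 over all genes tested. In 37 genes every ETV6_R399C library lay below every tagBFP library, as in 26.7% of genes tested. This comparison and the previous one use the same 3 tagBFP libraries, so their values are set side by side and not counted as 2 independent results.

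MYC was at 347, 342 and 357 CPM in ETV6_R399C libraries, against the tagBFP values given above, with no overlap (log2 -0.46 ± 0.03 SE, edgeR adjusted p = 4.0e-07). The fall with ETV6_WT had the same size. ODC1 was at 290, 289 and 318 CPM in ETV6_R399C libraries, also all below tagBFP (log2 -0.41 ± 0.04 SE, edgeR adjusted p = 7.5e-06). DDX21 was at 356, 372 and 388 CPM in ETV6_R399C libraries (log2 -0.48 ± 0.03 SE, edgeR adjusted p = 5.1e-07), and DKC1 at 255, 256 and 265 CPM (log2 -0.36 ± 0.02 SE, edgeR adjusted p = 6.6e-07). Both lay below every tagBFP library.

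The largest called falls with R399C were in other genes. NME1 fell by log2 -0.73 ± 0.06 SE (edgeR adjusted p = 5.4e-06), and NOP16 by log2 -0.68 ± 0.09 SE (edgeR adjusted p = 8.0e-05). SRM was at 79.1, 79.7 and 89.2 CPM in ETV6_R399C, against 128, 121 and 128 CPM in tagBFP libraries (log2 -0.60 ± 0.05 SE, edgeR adjusted p = 2.7e-06). By role, medians were log2 -0.44 for the MYC and metabolic genes, -0.45 for RNA polymerase I, -0.36 for snoRNPs, -0.43 for nucleolar regulators, -0.41 for the small subunit and -0.49 for the large subunit. BOP1 was again not called, at 4.09, 0.675 and 0.735 CPM in ETV6_R399C libraries (edgeR adjusted p = 0.273), with replicate 1 far above the other two. Without that library BOP1 was called lower (edgeR adjusted p = 0.00556), the only 1 of 15 settings to do so.

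**Figure D2:**
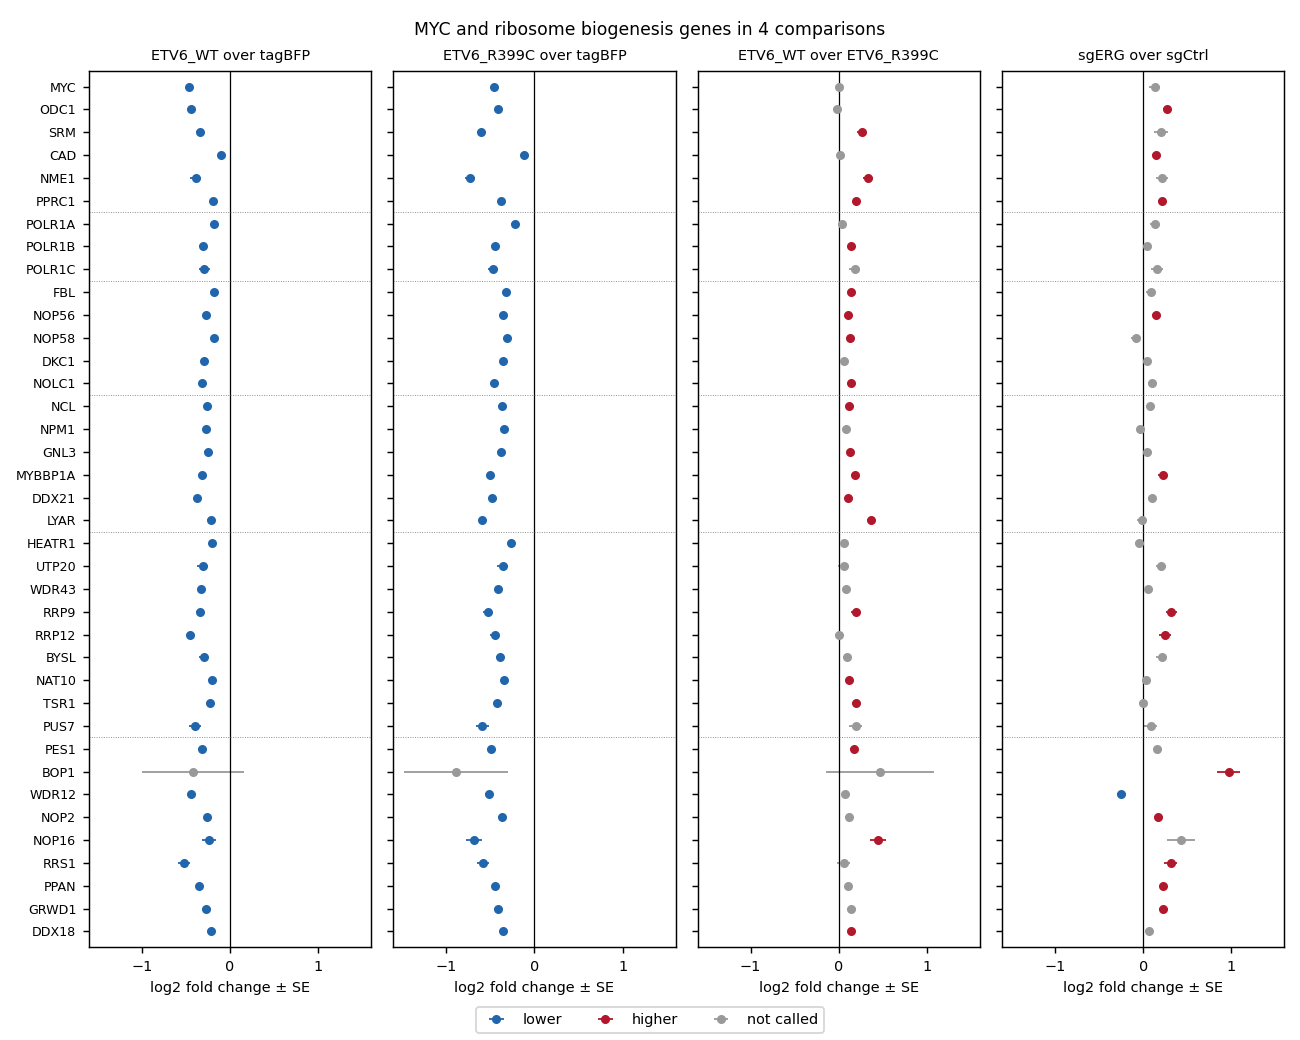
Log2 fold change ± SE of the 38 genes in the 4 comparisons, with dotted lines between the 6 role groups; blue points were called lower, red points higher and grey points neither (edgeR adjusted p under 0.05). The first 2 panels hold 37 blue points each, the third 19 red points, and the last 12 red points and 1 blue point.

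Set directly against each other, the 2 ETV6 forms differed in part of the set. In ETV6_WT against ETV6_R399C cells 19 of 38 genes were higher, while 12.1% of all genes tested were called higher. None was lower by edgeR, with 9.29% of all genes tested called lower, nor at an unadjusted p under 0.05 or in DESeq2. The median log2 difference was 0.13, against 0.02 over all genes tested. All ETV6_WT libraries lay above all ETV6_R399C libraries in 22 genes, as in 22% of genes tested. The ETV6 transcript was also higher in ETV6_WT than in ETV6_R399C cells, as given above, so the form of ETV6 and its level cannot be told apart.

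LYAR, a nucleolar regulator of cell growth, had the smallest p. It was at 76.5, 79.9 and 78.1 CPM in ETV6_WT, against 58.5, 60.8 and 63.1 CPM in ETV6_R399C libraries (log2 0.36 ± 0.04 SE, edgeR adjusted p = 8.2e-05). The groups were well apart. NOP16 had the largest called difference, with 16.9, 15.8 and 14.3 CPM in ETV6_WT, against 10.8, 12.2 and 11.8 CPM in ETV6_R399C libraries (log2 0.44 ± 0.09 SE, edgeR adjusted p = 0.00463). PPRC1 was at 131, 133 and 133 CPM in ETV6_WT, against 113, 115 and 121 CPM in ETV6_R399C libraries (log2 0.19 ± 0.03 SE, edgeR adjusted p = 0.00147). Neither gene's groups overlapped. SRM was at 99.3 ± 4.31 CPM in ETV6_WT, against 82.7 ± 5.63 CPM in ETV6_R399C libraries (SD, n = 3 each), with every ETV6_WT library above every ETV6_R399C library (log2 0.26 ± 0.05 SE, edgeR adjusted p = 0.00314), and lost its call with an offset for transcript length (edgeR adjusted p = 0.0856).

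MYC was not among the genes called. Its log2 difference was 0.00013 with a 95% interval of -0.057 to 0.057 (edgeR adjusted p = 0.998), and its libraries overlapped. ODC1, at log2 -0.025 with an interval of -0.10 to 0.049, and RRP12, at 0.0049 with an interval of -0.093 to 0.10, were not called either. By role, 3 of 6 MYC and metabolic genes, 5 of 6 nucleolar regulators and 4 of 5 snoRNP genes were called higher. So were 1 of 3 RNA polymerase I, 3 of 9 small-subunit and 3 of 9 large-subunit genes, with 12.1% of all genes tested. Differences between roles were not tested. The count of 19 rests on single libraries: it was 7 without ETV6_WT replicate 1, 7 without ETV6_WT replicate 2, 8 without ETV6_R399C replicate 1 and 10 without ETV6_R399C replicate 2. It was 10 with an offset for transcript length. NME1, PPRC1, LYAR and NOP16 were higher in all 15 settings.

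**Figure D3:**
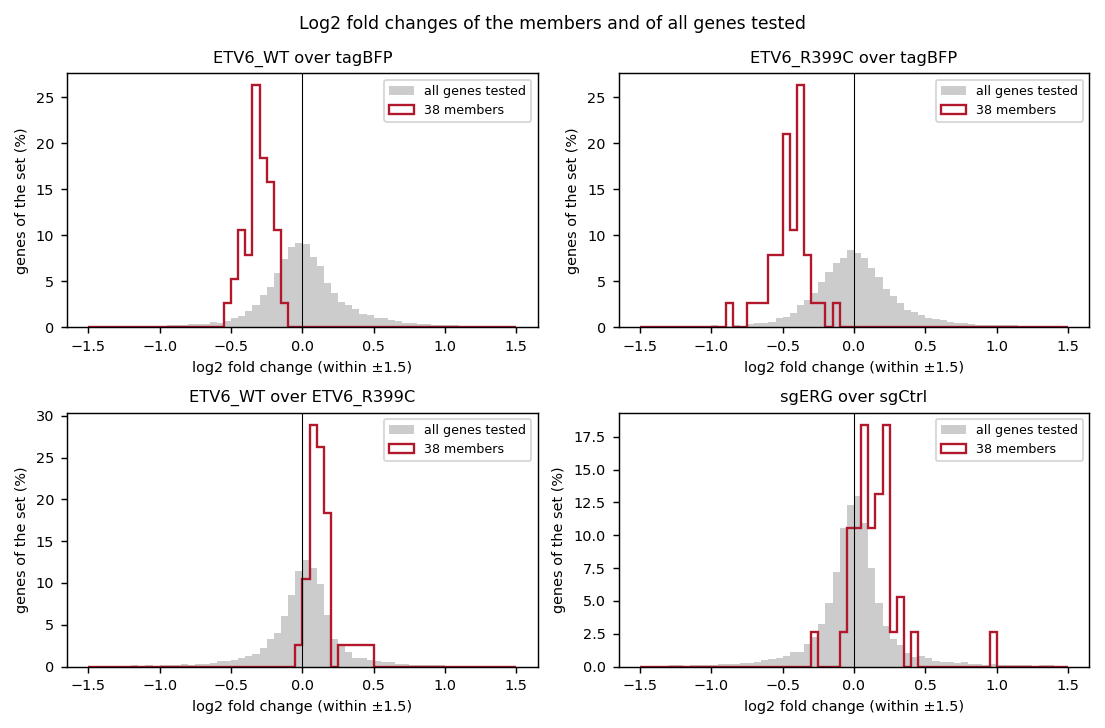
Distribution of log2 fold changes within ±1.5, in % of each set, for all genes tested (grey) and the 38 genes (red outline) in the 4 comparisons. The 38 genes lie left of 0 against tagBFP, with medians of -0.30 for ETV6_WT and -0.42 for ETV6_R399C, and mostly right of 0 for ETV6_WT over ETV6_R399C (0.13) and for sgERG over sgCtrl (0.14).

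With repression of ERG, an ETS-family activator, the genes that were called were mostly higher. In sgERG against sgCtrl cells 12 of 38 were higher, while 6.89% of all genes tested were called higher. Only WDR12 was lower, with 7.74% of all genes tested called lower. The median log2 fold change was 0.14, against 0.00058 over all genes tested. In 21 genes every sgERG library lay above every sgCtrl library, as in 17% of genes tested.

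MYC was at 557, 585 and 644 CPM in sgERG, against 543, 575 and 517 CPM in sgCtrl libraries. The groups overlapped and MYC was not called (log2 0.13, edgeR unadjusted p = 0.0528, adjusted p = 0.179), with sgERG replicate 3 the highest library. Its interval, 0.013 to 0.24, rests on a normal quantile and leaves out 0 although the unadjusted p was above 0.05. ODC1 was at 230, 223 and 233 CPM in sgERG, against 180, 203 and 185 CPM in sgCtrl libraries, without overlap (log2 0.27 ± 0.05 SE, edgeR adjusted p = 0.00413). RRP9, a protein of the snoRNP that directs the early cleavages of pre-rRNA, was at 24.9, 24.9 and 27.7 CPM in sgERG, against 20.7, 20.8 and 20.6 CPM in sgCtrl libraries (log2 0.32 ± 0.06 SE, edgeR adjusted p = 0.00667). Again no library of one group reached the other.

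BOP1 had the smallest p, at 6.53, 6.91 and 6.64 CPM in sgERG, against 3.17, 4.07 and 3.06 CPM in sgCtrl libraries (log2 0.97 ± 0.13 SE, edgeR adjusted p = 6.9e-04). Its counts were low, and with all 15 libraries in 1 fit the call was lost (edgeR adjusted p = 0.142). WDR12, its partner, went the other way, at 60.4, 61.2 and 56.4 CPM in sgERG, against 72.4, 70.1 and 69.9 CPM in sgCtrl libraries (log2 -0.25 ± 0.05 SE, edgeR adjusted p = 0.00413). The groups did not overlap, and the call was lost with an offset for transcript length (edgeR adjusted p = 0.0711). PES1, the remaining member of that complex, was not called (log2 0.16, edgeR adjusted p = 0.069).

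The other genes called higher were PPRC1, CAD, PPAN, MYBBP1A, RRS1, GRWD1, NOP56, RRP12 and NOP2, from log2 0.14 to 0.31. Large-subunit genes were called higher in 5 of 9 and RNA polymerase I genes in 0 of 3, with 6.89% of all genes tested. Differences between roles were not tested. NPM1 stood at log2 -0.034, with an interval of -0.10 to 0.032, and was not called. The count of 12 was 4 without sgCtrl replicate 1 and 3 without sgCtrl replicate 3, and 7 with an offset for transcript length. Without sgERG replicate 3, the library that stood apart, it was 14, and with all 15 libraries in 1 fit it was 18. ODC1 and RRP9 were higher in all 15 settings.

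Lists of related genes outside the 38 were counted in the same fits. In ETV6_WT against tagBFP cells, other large-subunit processing genes were lower in 30 of 35, other small-subunit processing genes in 24 of 32 and other snoRNP genes in 9 of 10. None was called higher in the main fit. Of all genes tested 18.9% were lower and 17.6% higher. The large-subunit count was 16 with an offset for transcript length. Examples were NIFK, a nucleolar RNA-binding protein, at 64 ± 1.83 CPM in ETV6_WT against 88.1 ± 1.13 CPM in tagBFP libraries (SD, n = 3 each), and NOP14 (log2 -0.32 ± 0.03 SE, edgeR adjusted p = 4.6e-06). In ETV6_R399C against tagBFP cells the same 3 lists were lower in 33 of 35, 29 of 32 and 10 of 10, with none higher. Of all genes tested 22.1% were lower and 18.8% higher there. DESeq2 called none of these higher in either comparison, and at an unadjusted p under 0.05 edgeR found 1 higher, among small-subunit genes with ETV6_WT. With ETV6_WT 1 small-subunit gene was called higher with no filter, with the replicate block and without ETV6_WT replicate 1. The length offset gave 1 large-subunit gene higher. With ETV6_R399C 1 small-subunit gene was higher with no filter. The highest small-subunit values, log2 6.03 with ETV6_WT and 5.45 with ETV6_R399C, were not called in the main fit.

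Genes of purine and pyrimidine synthesis were lower in 9 of 14 (64.3%, with 18.9% of all genes tested) with ETV6_WT against tagBFP. With ETV6_R399C against tagBFP 12 of 14 were lower (85.7%, with 22.1%). PAICS, a purine synthesis enzyme, was at 507 ± 6.78 CPM in ETV6_WT, 470 ± 24.4 CPM in ETV6_R399C and 619 ± 13.8 CPM in tagBFP libraries (SD, n = 3 each). EIF5A, the translation factor that carries a polyamine-derived residue, was at 565 ± 3.81 CPM in ETV6_WT, 522 ± 34.9 CPM in ETV6_R399C and 741 ± 16.7 CPM in tagBFP libraries. EIF5A is from the list of other polyamine genes, which was called in both directions. With ETV6_WT 4 of 11 were lower (36.4%, with 18.9%) and 2 higher (18.2%, with 17.6%). With ETV6_R399C 5 were lower (45.5%, with 22.1%) and 2 higher (18.2%, with 18.8%). PAOX of that list was called higher in both. Translation initiation genes were lower in 8 of 11 (72.7%, with 18.9%) with ETV6_WT and 9 of 11 (81.8%, with 22.1%) with ETV6_R399C. EIF4EBP1, an inhibitor of cap-dependent initiation, was among them with ETV6_WT (log2 -0.63 ± 0.04 SE, edgeR adjusted p = 3.7e-07).

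Genes for the ribosomal proteins themselves were counted too. With ETV6_WT against tagBFP 6 of 76 were lower (7.89%, with 18.9% of all genes tested) and 11 higher (14.5%, with 17.6%), so neither share exceeded that of all genes. The split depended on the processing: 12 lower and 8 higher with library totals as scaling, and 8 lower and 18 higher without tagBFP replicate 3. Leaving out ETV6_WT replicate 1 gave 10 lower and 1 higher, ETV6_WT replicate 2 gave 5 and 1, ETV6_WT replicate 3 gave 5 and 6, tagBFP replicate 1 gave 11 and 1, and tagBFP replicate 2 gave 12 and 1. With ETV6_R399C against tagBFP 46 of 76 were lower (60.5%, with 22.1% of all genes tested) and 1 higher, and 29 were lower without ETV6_R399C replicate 1. In ETV6_WT against ETV6_R399C 41 of 76 were higher (53.9%, with 12.1% of all genes tested) and none lower, also at an unadjusted p under 0.05 and in DESeq2. That count was 12 without ETV6_WT replicate 1, 23 without ETV6_WT replicate 2, 18 without ETV6_R399C replicate 1 and 25 without ETV6_R399C replicate 2. In sgERG against sgCtrl cells 1 of 76 was lower (1.32%, with 7.74% of all genes tested) and none higher, with 9 lower without sgERG replicate 3. For that comparison DESeq2 called none higher and 8 lower, and edgeR found 1 higher and 12 lower at an unadjusted p under 0.05. Ribosomal protein genes have many processed pseudogenes, so their reads are less certain.

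Genes of the MYC network, the partners and antagonists of MYC, were called in both directions. With ETV6_WT against tagBFP 3 of 13 were lower (23.1%, with 18.9% of all genes tested) and 4 higher (30.8%, with 17.6%). With ETV6_R399C against tagBFP 4 were lower (30.8%, with 22.1%) and 4 higher (30.8%, with 18.8%). The count of lower genes with ETV6_R399C was 1 or 2 on leaving out any of the 6 libraries and 0 with an offset for transcript length, and the count of higher genes with ETV6_WT was 2 without ETV6_WT replicate 1 or tagBFP replicate 2. MXD3, which encodes a partner of MAX that opposes MYC, was at 138 ± 4.36 CPM in ETV6_WT, 124 ± 1.89 CPM in ETV6_R399C and 85 ± 1.57 CPM in tagBFP libraries (SD, n = 3 each). It was called higher in both (log2 0.70 ± 0.03 SE and 0.55 ± 0.03 SE, edgeR adjusted p = 1.6e-08 and 2.2e-07). With sgERG it was lower (log2 -0.26 ± 0.05 SE, edgeR adjusted p = 0.00832). MLXIP (MondoA), a glucose-sensing factor that pairs with MLX, was at 683 ± 20.3 CPM in ETV6_WT, 569 ± 8.98 CPM in ETV6_R399C and 266 ± 9.55 CPM in tagBFP libraries.

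**Figure D4:**
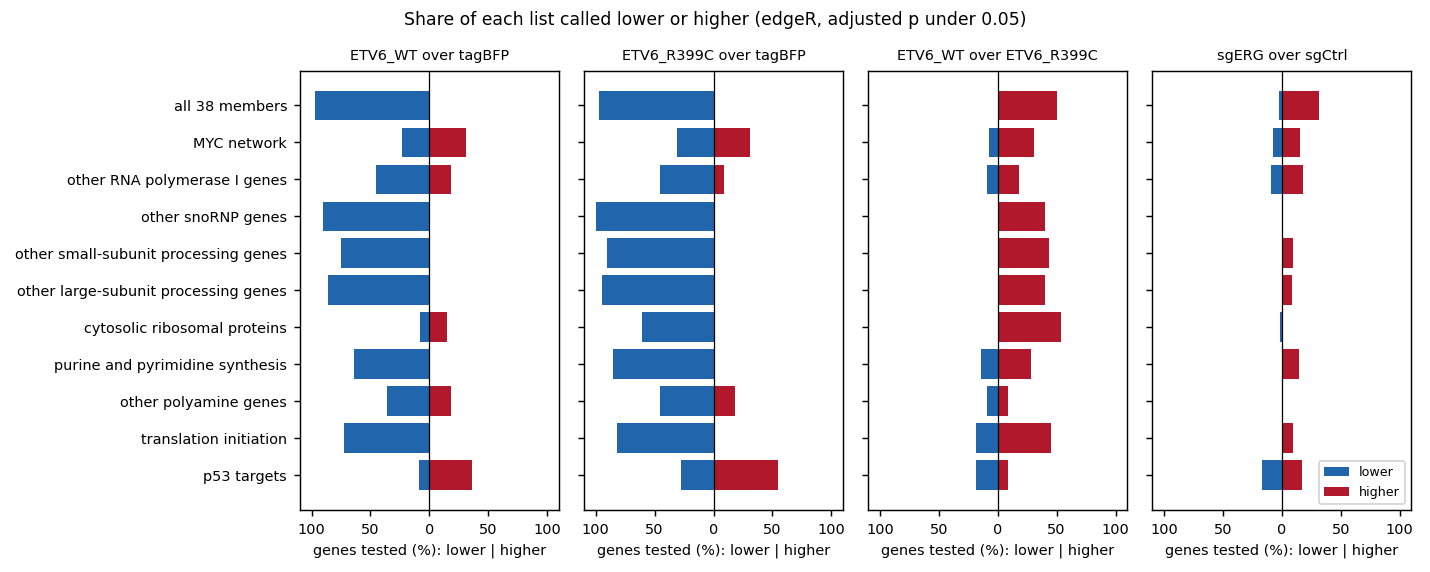
Share of each list called lower (blue, left) or higher (red, right) in % of its genes tested, for the 38 genes and 10 lists of related genes, in the 4 comparisons. The lists of snoRNP, small-subunit and large-subunit genes extend to the left in both comparisons with tagBFP (9 of 10, 24 of 32 and 30 of 35 lower with ETV6_WT, with 18.9% of all genes tested). The ribosomal proteins extend left for ETV6_R399C and right for ETV6_WT over ETV6_R399C.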

How the data were processed

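RNA was sequenced in 15 libraries of Reh cells, 3 in each of 5 groups, with a strand-keeping kit per the labels' protocols. The authors quantified transcripts with Salmon 0.11.3, and the build is hg38, per the submitters' processing notes. Each deposited table gives an estimated count and TPM per transcript, per the file headers. Not given in the sources used here are its strand setting, bias options and read filters. Deposited estimated counts were summed over GENCODE 29 genes and rounded, and deposited TPM values were summed without rounding. Transcripts of 90.3% of 167268 identifiers were named, and unnamed ones, with 6.67% to 7.56% of reads, were left out.

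Counts were tested with edgeR 4.0.16 in R 4.3.3 (quasi-likelihood test, TMM, default filter on low counts, Benjamini-Hochberg over all genes tested, threshold 0.05). The 9 ETV6_WT, ETV6_R399C and tagBFP libraries were fitted together, as were the 6 sgERG and sgCtrl libraries, with biological coefficients of variation of 4.95% and 6.24%. CPM are TMM-scaled within each fit. The SE is the log2 fold change divided by the square root of F and restates the test. The 95% intervals extend 1.96 SE to each side, a normal quantile, and so are narrower than the quasi-likelihood test implies. The script was tested on simulated data. Alternatives were DESeq2 1.42.0, other scalings, no filter, a transcript length offset, fewer or more groups, a replicate block and leaving out each library. No replicates agreed within sampling noise. Deviations of same-numbered libraries correlated at -0.06 to 0.07, and those of differently numbered libraries at -0.08 to 0.06. No pairing by number was seen, but correlations this small cannot show how the libraries were handled.

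The genes and lists were chosen with earlier results of these data known. Named in full are MYC, ODC1, up to 3 genes lower and 3 higher with the smallest p per comparison, the gene with the widest spread of levels and the largest direct ETV6_WT difference from ETV6_R399C, and up to 3 genes per related list. Others serve as examples of role groups and were chosen after their values were seen.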

Additional observations from a re-analysis of the deposited data

How the results depend on the processing

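Across 15 settings per comparison, the number of the 38 genes called lower stayed at 36 or 37 in both comparisons with tagBFP, except with the transcript length offset, which gave 31 for ETV6_WT and 33 for ETV6_R399C. Leaving out 1 library each gave 36 to 37 for ETV6_WT and 36 to 37 for ETV6_R399C. With the offset CAD turned to 0.094 for ETV6_WT and 0.088 for ETV6_R399C, neither called. It also ended the calls of HEATR1, POLR1A and UTP20 in both, and of NOP16 (adjusted p = 0.151) and PUS7 for ETV6_WT. NOP16 also lost its ETV6_WT call in DESeq2 (0.0797) and with only the 2 groups (0.0558). CAD lost its ETV6_R399C call without ETV6_R399C replicate 1 (0.0937) or 2 (0.0563).

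For ETV6_WT over ETV6_R399C the 19 genes called higher became 10 with the length offset and 7 to 25 on leaving out 1 library. For sgERG over sgCtrl the 12 genes called higher became 7 and the 1 called lower became 0 with the length offset, and leaving out 1 library gave 3 to 14 higher and 1 lower. The count higher was 14 with upper-quartile scaling, 16 with library totals, with no filter and in DESeq2, and 18 with all 15 libraries. The replicate block gave 36, 37, 19 and 8 genes in the main direction of the 4 comparisons, against 37, 37, 19 and 12. No pairing of libraries by replicate number was seen. The causes were not tested.

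Every other change of sign was in a gene not called in its comparison. For ETV6_WT over ETV6_R399C, MYC stood at -0.0096 with DESeq2 size factors, -0.022 with upper-quartile scaling, -0.035 with library totals, -0.0095 in DESeq2, -0.019 with no filter, -6.6e-05 with the replicate block, -0.023 with only 2 groups, and -0.028 to 0.018 on leaving out 1 library. RRP12 stood at -0.0048, -0.017, -0.030, -0.0049, -0.014 and -0.018 under the same settings without the block. CAD stood at -0.0041 with upper-quartile scaling, -0.017 with library totals, -0.0015 with no filter and -0.0050 with only 2 groups. With the length offset HEATR1 stood at -0.0093 and WDR43 at -0.026. For sgERG over sgCtrl, LYAR stood at 0.0017 with library totals, and TSR1 at 0.0061 with upper-quartile scaling, 0.013 with library totals and 0.10 with the length offset. On leaving out 1 library, ETV6_WT over ETV6_R399C ran from -0.063 to 0.021 in ODC1, -0.0096 to 0.035 in CAD, -0.066 to 0.067 in RRP12, -0.16 to 1.86 in BOP1 and -0.021 to 0.13 in RRS1, and sgERG over sgCtrl from -0.053 to 0.019 in LYAR and -0.024 to 0.0086 in TSR1.

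BOP1 rested on 14 to 231 reads per library and varied widely between libraries of the ETV6 experiment, and 3 libraries a group limit all tests. The other scalings moved the median log2 fold change of all genes tested to between -0.015 and 0.023, with -0.0014 to 0.02 under TMM.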

Other observations

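Targets of p53 were counted in the same fits. With ETV6_WT against tagBFP 1 of 11 was lower (9.09%, with 18.9% of all genes tested) and 4 higher (36.4%, with 17.6%). The count of lower genes was 2 without tagBFP replicate 1 or 2. With ETV6_R399C against tagBFP 3 of 11 were lower (27.3%, with 22.1%) and 6 higher (54.5%, with 18.8%), or 2 lower without ETV6_R399C replicate 2 or any of the 3 tagBFP libraries. These comparisons share the tagBFP libraries, and with an offset for transcript length they gave 0 lower and 2 higher with ETV6_WT, and 1 lower and 3 higher with ETV6_R399C. TP53INP1, a stress-induced p53 target, was higher in both (log2 0.70 ± 0.10 SE and 0.82 ± 0.10 SE, edgeR adjusted p = 2.5e-04 and 7.0e-05). AEN, another target, was lower in both (log2 -0.24 ± 0.04 SE and -0.33 ± 0.04 SE, edgeR adjusted p = 9.9e-04 and 8.5e-05). BBC3 (PUMA), a pro-apoptotic target, was at 16.4 ± 0.197 CPM in ETV6_WT, 25 ± 1.72 CPM in ETV6_R399C and 16.3 ± 0.814 CPM in tagBFP libraries (SD, n = 3 each). In ETV6_WT against ETV6_R399C it was lower (log2 -0.61 ± 0.06 SE, edgeR adjusted p = 4.7e-05). There 2 of 11 in all were lower (18.2%, with 9.29% of all genes tested) and 1 higher (9.09%, with 12.1%). In sgERG against sgCtrl cells 2 of 12 were lower (16.7%, with 7.74% of all genes tested) and 2 higher (16.7%, with 6.89%). MDM2, the ubiquitin ligase that restrains p53, was lower there (log2 -0.34 ± 0.07 SE, edgeR adjusted p = 0.00905). In the ETV6 experiment MDM2 was higher, at 70 ± 2.6 CPM in ETV6_WT against 40.6 ± 9.58 CPM in tagBFP libraries (SD, n = 3 each; log2 0.79 ± 0.16 SE, edgeR adjusted p = 0.00291).

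With ETV6_WT against tagBFP other RNA polymerase I genes were lower in 5 of 11 (45.5%, with 18.9% of all genes tested) and higher in 2 (18.2%, with 17.6%). There 3 were lower without ETV6_WT replicate 3 and none higher without ETV6_WT replicate 2. These genes were lower in 5 (45.5%, with 22.1%) and higher in 1 (9.09%, with 18.8%) with ETV6_R399C against tagBFP. Among them CD3EAP, an RNA polymerase I subunit, was lower in both (log2 -0.30 ± 0.06 SE and -0.58 ± 0.06 SE, edgeR adjusted p = 0.00319 and 3.0e-05) and higher in sgERG against sgCtrl cells (log2 0.35 ± 0.06 SE, edgeR adjusted p = 0.00288). Other polyamine genes were lower in 4 of 11 (36.4%, with 18.9% of all genes tested) and higher in 2 (18.2%, with 17.6%) with ETV6_WT. There 2 were lower without ETV6_WT replicate 3, and 1 was higher without ETV6_WT replicate 1 or 2 or tagBFP replicate 1 or 2. They were lower in 5 (45.5%, with 22.1%) and higher in 2 (18.2%, with 18.8%) with ETV6_R399C, with 1 higher without tagBFP replicate 1 or 3 or ETV6_R399C replicate 1. SAT1, which starts polyamine breakdown, was at 12 ± 1.19 CPM in ETV6_WT and 17.4 ± 1.45 CPM in ETV6_R399C libraries (SD, n = 3 each; log2 -0.53 ± 0.09 SE, edgeR adjusted p = 0.00115).

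In ETV6_WT against ETV6_R399C other small-subunit processing genes were higher in 14 of 32 (43.8%, with 12.1% of all genes tested). That count was 4, 5 and 8 without ETV6_WT replicate 1, 2 and 3, and 5 and 7 without ETV6_R399C replicate 1 and 2. Other large-subunit processing genes were higher in 14 of 35 (40%), with 9 without ETV6_WT replicate 1 or 2. Other snoRNP genes were higher in 4 of 10 (40%), with 2 without ETV6_WT replicate 1 or ETV6_R399C replicate 1. In sgERG against sgCtrl cells small-subunit genes were higher in 3 of 31 (9.68%, with 6.89% of all genes tested). None was without sgCtrl replicate 1 or 3. Large-subunit genes were higher in 3 of 35 (8.57%), with 7 without sgERG replicate 3. That count was 1 on leaving out any of sgERG replicate 1, sgERG replicate 2, sgCtrl replicate 1 and sgCtrl replicate 3. Both shares were close to that of all genes. DDX54, an RNA helicase of the large-subunit list, was at 251 ± 18.2 CPM in sgERG and 200 ± 3.82 CPM in sgCtrl libraries. CTPS1, which makes CTP, was at 141 ± 7.26 CPM in sgERG and 113 ± 1.97 CPM in sgCtrl libraries (log2 0.32 ± 0.05 SE, edgeR adjusted p = 9.5e-04). In its list, purine and pyrimidine synthesis, 2 of 14 genes were higher (14.3%, with 6.89% of all genes tested) and 12 were not called.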
